A study of Rattus norvegicus with 12 samples.

Results

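The microRNA-200 (miR-200) family was examined in small RNA libraries from the right hippocampus of 12 adult male Sprague Dawley rats. The study describes the tissue as dorsal hippocampus. Its members were taken as every deposited row of the miR-200a, miR-200b, miR-200c, miR-141 and miR-429 hairpins, in both arms where both are listed. This gave 9 of the 753 mature miRNAs: rno-miR-141-3p, rno-miR-141-5p, rno-miR-200a-3p, rno-miR-200a-5p, rno-miR-200b-3p, rno-miR-200b-5p, rno-miR-200c-3p, rno-miR-200c-5p and rno-miR-429. The prefix rno, for rat, is mostly left out below. Rats aged between P70 and P80 received an injection of vehicle (4 libraries) or of 4 g/kg ethanol (8 libraries) and were euthanized 3 h later. Each library came from 1 rat, and the comparison asks whether an intoxicating dose of ethanol shifted hippocampal miRNAs within that time. The other vehicle rats of the study are not analysed here.

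The miR-200 family is known as a set of epithelial miRNAs. Its 3p arms repress Zeb1 and Zeb2, transcription factors that shut off E-cadherin, and so help epithelial cells to keep their junctions. In the nervous system the family is best known from olfactory neurogenesis, while the hippocampus consists mainly of neurons and glia. Hairpins are cut into a 5p and a 3p arm, and the seed (bases 2 to 8 of the mature strand) chooses the targets.

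The genes lie at 2 loci. RefSeq places Mir141 and Mir200c on chromosome 4 of the GRCr8 assembly, with Mir3575 between them, flanked by the protein-coding genes Phb2 and Ptpn6. Mir200b, Mir200a and Mir429 lie in a row on chromosome 5, with Mir3548 between the last pair, and overlap Ttll10. The deposited files carry no coordinates, and the submitters' processing notes name the older build rn5, so positions are given by neighbouring genes alone.

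Mature sequences from RefSeq (GRCr8) matched 6 of the 9 rows; miR-200a-3p, miR-200b-3p and miR-429 had no entry. They are shown because the counts divide by seed and by arm. The seed is in capitals, written 5′ to 3′, and miR-448-3p, the comparison miRNA used below, is given last.
miR-141-3p: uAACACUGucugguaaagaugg
miR-200c-3p: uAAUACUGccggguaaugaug
miR-141-5p: uCCAUCUUccagugcaguguug
miR-200c-5p: cGUCUUACccagcaguguuug
miR-200a-5p: cAUCUUACcggacagugcugg
miR-200b-5p: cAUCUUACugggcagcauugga
miR-448-3p: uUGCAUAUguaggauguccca

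Counted from 1 at the 5′ end and without gaps, miR-141-3p and miR-200c-3p were identical at 17 of 21 positions. The substitutions from miR-141-3p to miR-200c-3p were C4U, U9C, U11G and A17U, of which 1, C4U, is in the seed. By the family's usual grouping, miR-200a-3p shares the seed of miR-141-3p, and miR-200b-3p and miR-429 share that of miR-200c-3p. The 5p arms of miR-200a and miR-200b were identical at 16 of 21 positions and had the same seed.

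Library totals ranged from 1960702 to 4917929 estimated counts. A limit of 3 counts, taken as the smallest detectable amount, corresponds to between 0.631 and 1.57 CPM (the read count scaled to library size, with a TMM factor for composition). This limit and the intervals given for shares and levels of reads cover counting error only. No 2 libraries agreed within sampling noise, so none was a copy of another. Each was counted as 1 rat by the animal number in its title. The neuronal miRNAs miR-124-3p, miR-9a-5p, miR-128-3p, miR-138-5p and miR-132-3p together held between 30636 and 39011 CPM in every library. Each library thus carried neuronal miRNAs. This cannot tell the hippocampus from other brain tissue, since no other tissue was compared.

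In these hippocampi the family was almost entirely miR-141-3p. Over the 12 libraries it held 786 of the 922 family reads, a share of 85.2% (exact 95% Clopper-Pearson interval of the pooled reads 82.8 to 87.5%). Within single libraries the share ran from 73.3% in vehicle rat 9 (interval 60.3 to 83.9%) to 96.0% in ethanol rat 15 (interval 86.3 to 99.5%). These intervals do not overlap each other, although each overlaps the pooled one, to which both libraries contribute. They belong to the extremes of the 12 libraries, and whether rats differed in this share was not tested. The composition plot shows that miR-141-3p formed most of every bar.

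**Figure D1:**
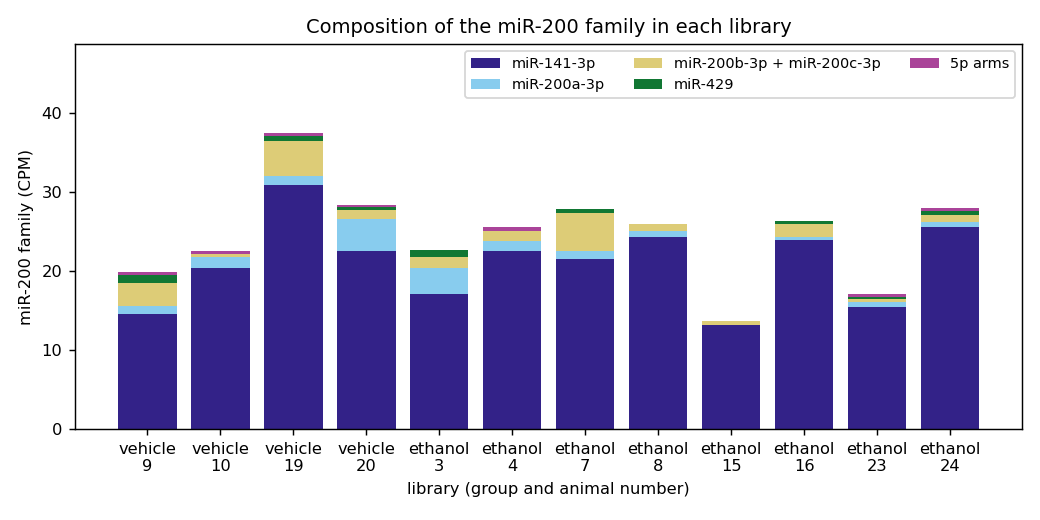
Stacked bars give the TMM-scaled CPM, from the deposited counts, of the family members in each of the 12 libraries, labelled by group and animal number; the reads of miR-200b-3p and miR-200c-3p are joined. Family totals ran from 13.7 CPM in ethanol rat 15 to 37.4 CPM in vehicle rat 19, and miR-141-3p made up at least 73.3% of each.

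Expression of miR-141-3p, which with miR-200c is encoded on chromosome 4, was modest. Its mean was 21.0 CPM over the 12 libraries, rank 295 of the 420 miRNAs retained for testing. Reads numbered 44, 48, 147 and 106 in vehicle rats 9, 10, 19 and 20, and 37, 53, 41, 60, 48, 68, 47 and 87 in ethanol rats 3, 4, 7, 8, 15, 16, 23 and 24. It was the single member with at least 10 reads in every library, and all its counts were whole numbers. Between libraries its CPM varied 2.35-fold, from 13.2 to 30.9, with a coefficient of variation of 24.5%. The median coefficient over the 93 retained miRNAs with a mean between 0.5 and 2 times its own was 19.1%. A chi-square per degree of freedom of 4.56 around equal CPM, where counting error alone gives 1, placed this spread above counting error.

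The remaining 3p arms were sparse, and their ranges overlapped one another. More than 3 reads were counted in 3 libraries for miR-200a-3p, in 5 for miR-200b-3p and miR-200c-3p together and in 0 for miR-429. Reads of miR-200a-3p, which shares the miR-141-3p seed but comes from the chromosome 5 locus, totalled 49. They numbered 3, 3, 5 and 19 in vehicle rats 9, 10, 19 and 20, and 7, 3, 2, 2, 0, 1, 2 and 2 in ethanol rats 3, 4, 7, 8, 15, 16, 23 and 24. Vehicle rat 20 and ethanol rat 3 stood above the rest, at 4.04 and 3.24 CPM. Reads of miR-429, the third miRNA of the chromosome 5 locus, totalled 15, with at most 3 in a library and 0 in vehicle rat 10 and ethanol rats 4, 8 and 15.

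Counts of miR-200b-3p and miR-200c-3p could not be read as separate measurements. Both were fractional in all 12 libraries, yet their sum was a whole number (within 0.001) in each. This sum was 9, 1, 21 and 5 reads in vehicle rats 9, 10, 19 and 20, and 3, 3, 9, 2, 2, 5, 1 and 3 reads in ethanol rats 3, 4, 7, 8, 15, 16, 23 and 24. In 10 libraries the deposited division was the same: 1.15% of the sum stood on miR-200b-3p and the rest on miR-200c-3p. In vehicle rats 9 and 19 the share on miR-200b-3p was 94.5% and 74.3%. All but a trace of the 24.5 estimated reads of miR-200b-3p therefore came from these 2 libraries. How reads were divided between related miRNAs is not given in the sources used here, so the sum is the value used for this pair.

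**Figure D2:**
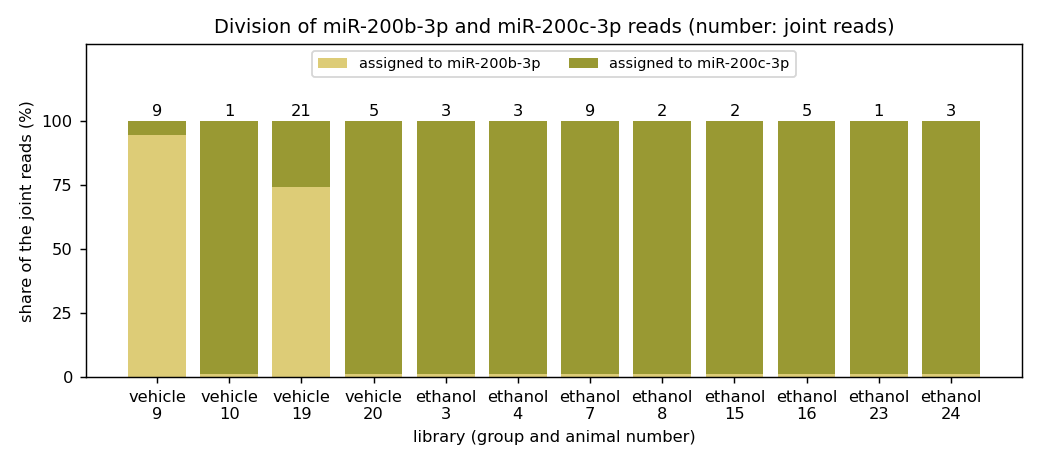
Bars give the share, in percent, of the joint miR-200b-3p and miR-200c-3p reads that the deposited counts place on each miRNA in each library, and the number above a bar is the joint read count. The division is 1.15% on miR-200b-3p in 10 libraries, and 94.5% and 74.3% in vehicle rats 9 and 19.

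Grouped by seed, miR-141-3p and miR-200a-3p held 835 of the 914 reads on 3p arms (91.4%, interval 89.3 to 93.1%), and miR-200b-3p, miR-200c-3p and miR-429 held the others. The seed grouping does not depend on the division between miR-200b-3p and miR-200c-3p, whereas a grouping by locus does.

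The 5p arms were nearly absent. Together they held 8 of the 922 family reads (0.868%, interval 0.375 to 1.70%). For the miR-141 hairpin, 5 of 791 reads were on the 5p arm (0.632%, interval 0.206 to 1.47%), and these came from vehicle rats 9, 19 and 20 and ethanol rat 23. Reads of miR-200a-5p numbered 3, with 1 each in vehicle rat 10 and ethanol rats 4 and 24. No read of miR-200b-5p or miR-200c-5p was counted in any library, which allows up to between 0.631 and 1.57 CPM in each.

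The study, which had more rats, dropped miRNAs that fell short of 10 reads in 10 libraries or more. Applied to 12 libraries, that limit is not an identical filter, since 10 is a larger share of them. It retained 420 miRNAs here and, of the family, 1 of 9 members, miR-141-3p. This miRNA was therefore the single member for which ethanol and vehicle rats were compared across all miRNAs.

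Ethanol and vehicle rats did not differ detectably in miR-141-3p. Expression was 14.5, 20.4, 30.9 and 22.6 CPM in vehicle rats 9, 10, 19 and 20, and in the 8 ethanol rats it ran from 13.2 through a median of 22.0 to 25.5 CPM. The groups overlapped: 1 of 8 ethanol rats lay below every vehicle rat and 0 lay above, and the highest value was that of vehicle rat 19. Means were 22.1 ± 6.78 CPM (SD, n = 4) and 20.4 ± 4.58 CPM (SD, n = 8). The log2 fold change of ethanol over vehicle was -0.13 with a standard error of 0.21 (edgeR's quasi-likelihood test, Benjamini-Hochberg adjusted p = 0.971). Its 95% interval on the linear scale was 0.665 to 1.25, so changes of that size in either direction remained possible. The two-sided exact permutation test of the difference in mean log2 CPM gave p = 0.683, and the smallest p that 4 against 8 rats allow is 0.00202. Without vehicle rat 19 the log2 fold change was 0.063 (adjusted p = 0.980 in edgeR), so its sign rested on that library.

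**Figure D3:**
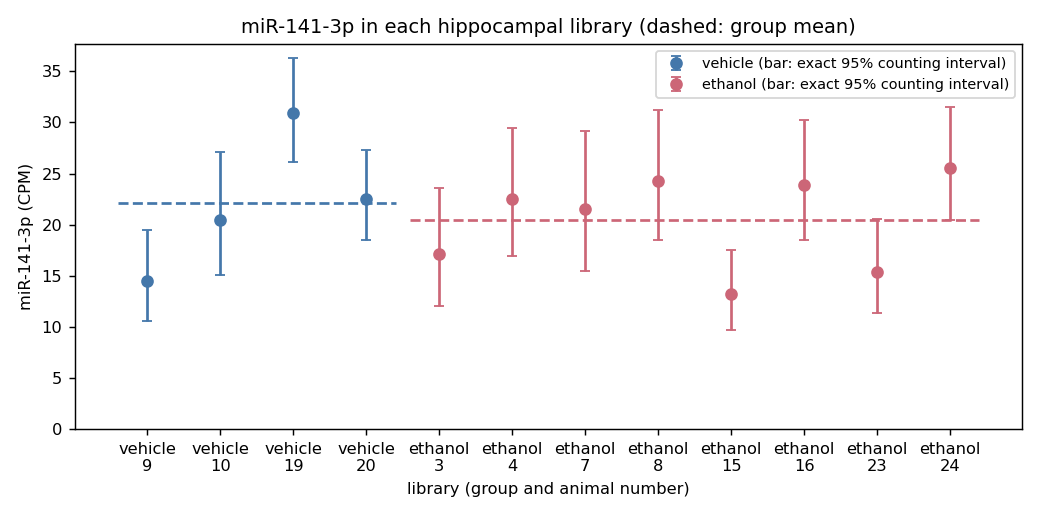
Points give miR-141-3p in CPM for each of the 12 libraries, with bars for the exact 95% counting interval and dashed lines for the group means of 22.1 CPM (vehicle) and 20.4 CPM (ethanol). The ethanol libraries, between 13.2 and 25.5 CPM, lie within or just below the range of the vehicle libraries, 14.5 to 30.9 CPM.

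Over all 420 retained miRNAs, 0 (0%) had an adjusted p under 0.05 for ethanol in edgeR's quasi-likelihood test, and 17 (4.05%) had an unadjusted p under 0.05. By DESeq2 1 miRNA passed, which was no family member, and by limma-trend 0 did. Groups did not overlap in CPM for 1 of the 420 (0.238%), and no family member was among them. The median log2 fold change over all retained miRNAs was -0.02.

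For the members under the filter, the exact permutation test gave p = 0.166 for miR-200a-3p, with a vehicle mean of 1.84 ± 1.47 CPM (SD, n = 4) and an ethanol mean of 0.996 ± 0.990 CPM (SD, n = 8). Its level was under the lowest vehicle value in 5 of 8 ethanol rats, while ethanol rats 3, 4 and 7 lay within the vehicle range. It was under the vehicle mean in 7 ethanol rats, and also in vehicle rats 9, 10 and 19. For miR-429 the exact permutation test gave p = 0.477, with 0.512 ± 0.413 CPM (SD, n = 4) and 0.340 ± 0.335 (SD, n = 8). The joint reads of miR-200b-3p and miR-200c-3p had a vehicle mean of 2.22 ± 1.82 CPM (SD, n = 4) and an ethanol mean of 1.46 ± 1.39 CPM (SD, n = 8). At these depths a difference was not detectable for miR-200a-3p or miR-429, and the joint reads were not tested. The whole family summed to 27.0 ± 7.79 CPM (SD, n = 4) and 23.4 ± 5.25 (SD, n = 8), and the ranges, 19.8 to 37.4 and 13.7 to 27.9 CPM, overlapped.

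The family was next set against miR-448-3p. This miRNA lies on the X chromosome within Htr2c, the gene of a serotonin receptor that the choroid plexus, the epithelium that makes cerebrospinal fluid, expresses strongly. It ranged 5.26-fold between libraries, from 272 CPM in ethanol rat 3 to 1431 in ethanol rat 8, and vehicle rats lay between 463 and 1013 CPM. Ethanol and vehicle did not differ detectably in it (log2 fold change -0.06, standard error 0.41, edgeR adjusted p = 0.997). On the log2 scale the largest gap between neighbouring libraries was 0.68 of a range of 2.39, so the libraries were treated as a continuous spread. In bulk tissue, fewer cells of a type and less RNA per cell cannot be told apart.

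Libraries with little miR-448-3p also had little miR-141-3p. In the 4 libraries with the least miR-448-3p (ethanol rats 3, 15 and 23 and vehicle rat 10) miR-141-3p was between 13.2 and 20.4 CPM, and in the 4 with the most (ethanol rats 4, 8 and 16 and vehicle rat 20) it was between 22.6 and 24.3 CPM. Vehicle rat 9, with 751 CPM of miR-448-3p, lay apart at 14.5 CPM of miR-141-3p, and vehicle rat 19 had the most miR-141-3p without having the most miR-448-3p. Over the 12 libraries Pearson's r of the log2 values was 0.72 (permutation p = 0.00872) and Spearman's rho was 0.73 (permutation p = 0.00878). After Benjamini-Hochberg adjustment over the 5 members examined in this way, these permutation p-values were 0.0436 and 0.0439. The 5 included miR-200b-3p and miR-200c-3p separately, at their divided counts. Without ethanol rats 3 and 15, the libraries farthest from the median miR-448-3p, r was 0.58 (permutation p = 0.0770, n = 10), so the correlation at the 0.05 level rested on those libraries. Within the 8 ethanol rats alone r was 0.87 and rho 0.79 (exact permutation p = 0.00771 and 0.0279), and the 4 vehicle rats were too few for a value. These 8 include ethanol rats 3 and 15, so the value within ethanol rats is no separate support. It was not computed without them. All of these values share the library and its total, with which miR-141-3p and miR-448-3p each had a weak correlation (r = 0.21 and 0.22).

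**Figure D4:**
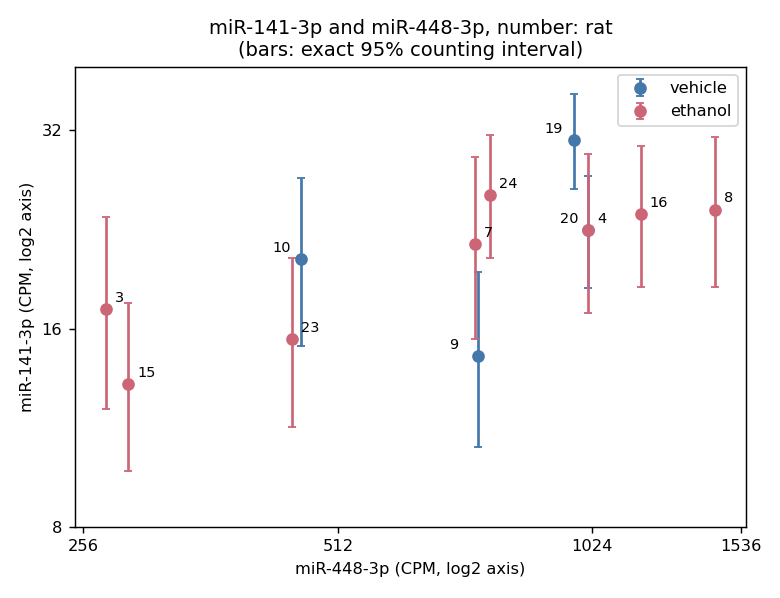
Each point is a library, with miR-448-3p in CPM on the horizontal axis and miR-141-3p in CPM on the vertical axis, both on log2 axes; numbers are animal numbers and bars are exact 95% counting intervals of miR-141-3p; the point of ethanol rat 4 covers that of vehicle rat 20. The 4 leftmost libraries lie between 13.2 and 20.4 CPM of miR-141-3p, and the 4 rightmost between 22.6 and 24.3 CPM.

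Fitted across all miRNAs with treatment as a covariate, miR-141-3p had a slope of 0.35 (standard error 0.11, 95% interval 0.11 to 0.58) in log2 units per doubling of miR-448-3p. Its unadjusted p in edgeR's quasi-likelihood test was 0.00749, rank 30 of the 418 miRNAs tested, and its adjusted p was 0.104, so the slope did not pass adjustment over all miRNAs. In all, 18 of the 418 (4.31%) passed, against 0 of the 1 family member tested. This count was 37 without ethanol rat 3 and 10 without ethanol rat 15. A positive slope with an adjusted p under 0.05 was found for 16 of the 418 (3.83%), a negative slope for 2 (0.478%), and a positive slope with an unadjusted p under 0.05 for 36 (8.61%), among them miR-141-3p. Scaling by library totals alone gave 15 positive and 8 negative slopes that passed. The median slope over all miRNAs was -0.00475.

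Choroid plexus miRNAs had steeper fitted slopes, although the difference from miR-141-3p was not tested. All 5 tested members of that list, from which miR-448 itself was left out, passed with positive slopes. Of these, miR-1298 and both arms of miR-764 are, like miR-448, miRNAs of Htr2c introns, so their slopes are no independent measure. The members outside that gene were miR-204-5p, with a slope of 0.81 (standard error 0.04), and miR-211-5p, with 0.85 (standard error 0.07). For miR-1298, which neighbours miR-448 on the X chromosome, the slope was 1.04 (standard error 0.03). The values of miR-204-5p, miR-211-5p and miR-1298 lie above the 95% interval of the miR-141-3p slope. The number of miR-141-3p reads per 100 reads of miR-448-3p ran from 1.70 in ethanol rat 8, the library with the most miR-448-3p, to 6.30 in ethanol rat 3, the library with the least. Since miR-448-3p is the denominator and varied more than miR-141-3p, this ratio is no separate measure of their relation. The summed level of the 9 listed choroid plexus miRNAs ran from 31470 to 56001 CPM in vehicle rats and from 17985 to 79034 CPM in ethanol rats, and miR-1912-3p was at 0 in all libraries. The part of this tissue in the miR-141-3p level was not tested.

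**Figure D5:**
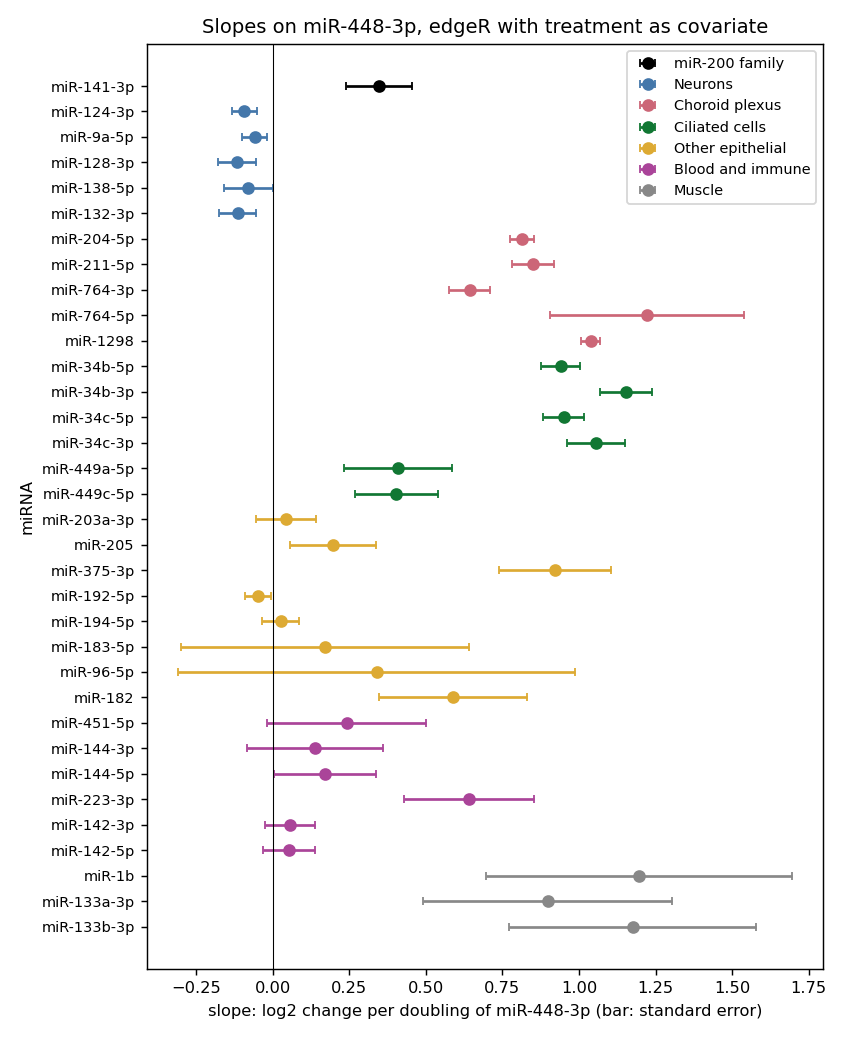
Points give the slope of each retained marker miRNA on miR-448-3p (log2 change per doubling, edgeR with treatment as a covariate), and bars give its standard error; colours mark the lists. The slope of miR-141-3p, 0.35, lies below those of the choroid plexus miRNAs, which start at 0.64 for miR-764-3p, and above those of the neuronal miRNAs.

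Of the ciliated-cell list, the miR-34b/c and miR-449 miRNAs that multiciliated cells carry, 4 of 6 tested members passed with positive slopes, and the median slope was 0.94. Its summed level was 4361 to 8932 CPM in vehicle and 1960 to 12127 CPM in ethanol rats, with miR-449a-3p and miR-449c-3p at 0 throughout. Of 8 tested miRNAs of other epithelia, 1 passed: miR-375-3p, a miRNA of endocrine and epithelial secretory cells, had a slope of 0.92 (standard error 0.18, edgeR adjusted p = 0.00965). The skin and airway miRNA miR-205 had a slope of 0.20 (standard error 0.14) and the keratinocyte miRNA miR-203a-3p one of 0.04 (standard error 0.10), and neither passed (adjusted p = 0.592 and 0.882 in edgeR). Among the 4 members of highest mean CPM, miR-182 had a slope of 0.59 (standard error 0.24, edgeR adjusted p = 0.232). The slope was 0.17 (standard error 0.47) for miR-183-5p and -0.05 (standard error 0.04) for miR-192-5p, and these did not pass either. Without adjustment, 2 of the 8, miR-375-3p and miR-182, had a positive slope with p under 0.05 in edgeR. The summed level of this list was 3685 to 4603 CPM in vehicle and 4313 to 5302 CPM in ethanol rats, most of it miR-192-5p at a mean of 3754 CPM. Of the neuronal list 0 of 5 passed, with a median slope of -0.09. Of the blood and immune list, which summed to 447 to 592 CPM in vehicle and 311 to 741 CPM in ethanol rats, 0 of 6 passed (median slope 0.15). Of the muscle list, which summed to 128 to 1765 CPM in vehicle and 112 to 1712 CPM in ethanol rats, 0 of 3 passed (median slope 1.17). Without adjustment, a positive slope with p under 0.05 in edgeR was found for 0 of 5 neuronal, 1 of 6 blood and immune and 3 of 3 muscle miRNAs. Over all 418 miRNAs this share was 8.61%. The blood miRNA was miR-223-3p, with a slope of 0.64 (standard error 0.21, edgeR adjusted p = 0.107). The part of these cell types in the miR-141-3p level was not tested. For ethanol against vehicle, 0 members of any of these lists passed.

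For the sparse 3p arms, Pearson's r with miR-448-3p over the 12 libraries was -0.08 for miR-429, 0.04 for miR-200a-3p and 0.35 for the joint reads of miR-200b-3p and miR-200c-3p. With so few reads these values show no relation in either direction. Correlations between members were not computed, since miR-141-3p alone had 10 reads in every library. Reads of miR-200a-3p peaked in vehicle rat 20 and ethanol rat 3, and the joint reads of miR-200b-3p and miR-200c-3p peaked at 4.72 CPM in ethanol rat 7 and 4.42 CPM in vehicle rat 19. Reads of miR-429 were at their highest CPM in vehicle rat 9 (0.991, 3 reads) and ethanol rat 3 (0.927, 2 reads). Ethanol rat 3 was thus the highest ethanol library in CPM for both miR-200a-3p and miR-429. For miR-429, however, ethanol rat 24 also had 2 reads, and the value of ethanol rat 3 lies under the limit of 3 counts in its library (1.39 CPM).

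Among the 419 other retained miRNAs, those whose log2 CPM over the 12 libraries was most like the summed family, by Pearson's r, were miR-199a-3p, miR-378b, miR-378a-3p, miR-223-3p and miR-142-3p. Their r was 0.79, 0.75, 0.75, 0.71 and 0.70, against a median of -0.03 over all, and miR-448-3p ranked 13 with an r of 0.68. These values are descriptive, and the family sum follows miR-141-3p (r = 0.94). Of the 5, miR-199a-3p is known from mesenchymal and vascular cells, and miR-223-3p and miR-142-3p from blood-derived cells. The mean level of miR-199a-3p was 345 CPM and ran from 207 to 423 CPM. For miR-223-3p it was 7.25 CPM, from 2.64 to 13.3 CPM, and for miR-142-3p 18.5 CPM, from 14.0 to 21.7 CPM. Counts of miR-378a-3p and miR-378b were fractional in all 12 libraries. Both passed for a positive slope on miR-448-3p, at 0.24 and 0.26 (edgeR adjusted p = 0.0253 and 0.00451), and the other 3 did not.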

How the data were processed

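Expected counts (estimated counts, 1 list of 753 mature miRNAs per rat) were used as deposited by the authors, unscaled. The submitters' processing notes name cutadapt, Partek and rn5; the counter, its versions and the miRNA annotation are not given in the sources used here. Library sequencing sets are not labelled. Counts were rounded to whole numbers; values per member are given as deposited. Miscounting between near-identical miRNAs and unequal ligation of different sequences affect comparisons between miRNAs.

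Tests used R 4.3.3, edgeR 4.0.16 (TMM, quasi-likelihood, Benjamini-Hochberg), limma 3.58.1 and DESeq2 1.42.0, with a prior count of 2 for log2 CPM; 420 miRNAs were retained, and 418 for slopes on miR-448-3p, since both miR-448 arms were left out. The edgeR script was tested on simulated counts. Exact permutation tests covered all 495 assignments of the groups, and correlations used 100000 permutations (40320 orders within ethanol rats). Members and marker lists were chosen with earlier results of these data known. Named miRNAs were the members, miR-448-3p, and the 5 retained miRNAs with the highest Pearson's r with the family sum. From each list the 4 members of highest mean CPM could be given with values; miR-205 and miR-203a-3p, as epithelial references, and miR-764-3p were named after their values were seen.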

Additional observations from a re-analysis of the deposited data

Results flagged for a closer look

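Of 14 groups examined (7 measures in vehicle and ethanol rats separately), 3 held a library far from the rest of its group by Dixon's criterion. By chance 0.7 would be flagged if values were normally distributed. The flagged measures are sparse counts, for which that number need not hold, so no excess over chance can be read from it. For miR-200a-3p, vehicle rat 20 was the highest at 4.04 CPM, with the other vehicle rats between 0.991 and 1.28 CPM, so that the gap took up 0.906 of the vehicle range. In the ethanol group, rat 3 led for the same miRNA at 3.24 CPM, with the other ethanol rats between 0 and 1.28 CPM, a gap of 0.606 of the range. For the joint reads of miR-200b-3p and miR-200c-3p, ethanol rat 7, the smallest library, was the highest at 4.72 CPM, with the other ethanol rats between 0.328 and 1.76 CPM, a gap of 0.675 of the range. These values rest on 19, 7 and 9 reads.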

How the results depend on the processing

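No paired analysis was possible because the groups share no animal number. Under the 8 other settings for ethanol against vehicle, miR-141-3p had log2 fold changes between -0.16 and -0.06 and never passed. With each rat left out in turn they lay between -0.28 and 0.063, and the positive value, 0.063, came without vehicle rat 19, the library with the highest value. The adjusted p lay between 0.885 and 1.00 throughout. The number of miRNAs that passed was 0, but 1 with DESeq2's Wald test (the cause was not tested), and between 0 and 3 with each rat left out (3 without ethanol rat 16). The slope of miR-141-3p on miR-448-3p kept its sign and did not pass under any of 9 other settings (0.33 to 0.36), of which the library total as a covariate was added after seeing the data, nor with each rat left out (0.30 to 0.41). Its adjusted p lay between 0.0591 and 0.254. The number of miRNAs with a passing slope was between 15 and 25 under the other settings and between 10 (without ethanol rat 15) and 37 (without ethanol rat 3) with each rat left out. Mean CPM of miR-141-3p stayed within 1 SD, at 19.2 to 24.6 in vehicle and 19.7 to 21.5 in ethanol rats. Without a filter 7 members were tested, and the lowest adjusted p was 0.854 for ethanol and 0.123 for the slope (edgeR). Depth limits all members other than miR-141-3p, whose counts were too few to show a difference.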
